A study of Mus musculus with 3 samples.

Results

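Proliferating nuclei were chosen by the transcripts of 4 cell cycle genes, Top2a, Mki67, Kif11 and Knl1, which together had to give at least 3 unique molecular identifiers (UMIs, each standing for 1 counted RNA molecule). This rule selected 444 of the 12549 nuclei of 3 single-nucleus RNA libraries. The libraries were made from neural stem cells of the subventricular zone of newborn C57BL/6 mice, grown as neurospheres and then differentiated until day 15 in vitro, first with bFGF and then with serum and no mitogens. The control library is labelled as control, the CBP-ablated library comes from CBPf/f cells with Cre and the p300-ablated library from p300f/f cells with Cre. The labels give tamoxifen as the treatment of all 3, whereas the methods describe a lentivirus with Cre and mCherry, or with RFP for the control, given to cells of floxed mice, and which floxed line the control cells came from is not stated. Each library is 1 pool of about 15 cultures, sorted by flow cytometry and loaded at 16000 nuclei, so there was 1 library per condition, no replicate and no test between conditions. Values given as a run of 3 are in the order control, CBP-ablated, p300-ablated. Intervals are at 95% and cover counting error only, not the spread between cultures.

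Of the 4 genes that chose the nuclei, Top2a encodes the topoisomerase that untangles replicated DNA, Mki67 the coat protein of mitotic chromosomes, Kif11 a motor that pushes the spindle poles apart and Knl1 a scaffold of the kinetochore. A dividing cell first copies its DNA in S phase and then builds these structures in G2 and mitosis. In the subventricular zone and in cultures from it, oligodendrocyte precursors (OPCs), which carry the PDGF receptor gene Pdgfra, are known to keep dividing while they also give rise to oligodendrocytes. Microglia can also divide in culture.

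The start regions of the marker genes are shown because a cell cycle element and the CCAAT box are letter strings that many genes of the division programme carry close to the start. The sequences were taken from RefSeq on GRCm38.p6, read on the strand of the gene, with TTTGAA and CCAAT or their reverse complements TTCAAA and ATTGG in capitals. Top2a is at chr11:99024195-99024350 on the minus strand, Mki67 at chr7:135716460-135716532 on the minus strand, Kif11 at chr19:37376325-37376380 on the plus strand and Kif15 at chr9:122951050-122951079 on the plus strand, all upstream of the RefSeq transcript start.
Top2a: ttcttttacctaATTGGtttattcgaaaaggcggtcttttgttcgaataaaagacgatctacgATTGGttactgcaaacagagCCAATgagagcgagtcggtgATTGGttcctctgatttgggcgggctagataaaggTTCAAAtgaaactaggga
Mki67: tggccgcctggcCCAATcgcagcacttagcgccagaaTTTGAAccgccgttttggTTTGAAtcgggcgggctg
Kif11: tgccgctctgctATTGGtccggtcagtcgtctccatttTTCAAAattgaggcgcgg
Kif15: tggggcgccaaaTTCAAAtctgcggccatc

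In Knl1 and Ndc80 the TTTGAA letters lay past the transcript start, at bases 32 and 30. Windows from 250 bases before to 50 bases after the start were found for 112 of 140 genes of the cell cycle lists. TTTGAA on either strand was in 45.5% of these windows and in 18.1% of the windows of all 27025 genes, and CCAAT was in 70.5% and 37.9%. Both were together in 36.6% and 7.12%. A match is a description of the letters, not a site.

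Nuclei that met the rule numbered 131 of 4884 for control, 128 of 3017 after loss of CBP and 185 of 4648 after loss of p300. They held a median of 4075, 4195 and 4923 UMIs, against 3186, 4008 and 3832 UMIs in the nuclei with no UMI of the 4 genes, which are called non-dividing nuclei below. Nuclei that met the rule are called dividing nuclei, a name for the rule, which does not show that each of them was dividing. They were somewhat deeper, and a fixed number of UMIs is met more easily in a deep nucleus. Their summed depth was 541706, 564495 and 982025 UMIs in that order, which puts a floor of 3 UMIs at 5.54, 5.31 and 3.05 CPM (UMIs of a gene scaled to a fixed total for the summed nuclei). Doublet scoring marked 5, 3 and 16 of them. Cell barcodes that 2 libraries share numbered 3 for control and CBP-ablated, 7 for control and p300-ablated and 1 for both ablated libraries.

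Just inside the threshold, at exactly 3 UMIs, lay 29 control, 16 CBP-ablated and 32 p300-ablated nuclei, and just outside it, at exactly 2, lay 47, 36 and 58. At 3 UMIs, a UMI of Kif15 or Ndc80, which the rule did not use, was present in 62.1%, 43.8% and 28.1% of nuclei, and at 2 UMIs in 27.7%, 27.8% and 24.1%. At 8 UMIs or more the shares were 100%, 98.3% and 87.9%, and at 0 they were 1.44%, 2.17% and 1.88%. The border thus ran through a gradient and not a gap.

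Top2a was measured at 617, 779 and 664 CPM in the dividing nuclei. Mki67 was at 349, 280 and 264 CPM, Kif11 at 338, 317 and 310, and Knl1 at 367, 413 and 393. These 4 values chose the nuclei and are given as a description. The floxed genes were detected in the dividing nuclei of all 3 libraries, Crebbp (CBP) at 306, 363 and 334 CPM and Ep300 (p300) at 102, 93.9 and 103 CPM. Counts over whole genes cannot check the loss of 1 floxed exon. For Ep300 the paper describes loss of the mature mRNA after recombination, and the p300-ablated level was not below control. The counts also take in introns and do not separate mature mRNA, so these levels do not check the labels.

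Kif15, a spindle motor, was at 349, 353 and 304 CPM in the dividing nuclei, against 3.28, 4.55 and 4.06 CPM in the non-dividing nuclei. Ndc80, which ties the kinetochore to microtubules, was at 118, 142 and 103 CPM against 1.41, 1.34 and 1.52. Both genes were far above the non-dividing nuclei in every library. Since the rule and these genes come from the same nuclei, this is a check of the name and no independent finding.

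Across the cell cycle lists 136 genes outside the rule were looked at, of which 113, 119 and 116 averaged at least 10 CPM over dividing and non-dividing nuclei. Of these, 102, 109 and 105 were past 1 log2 unit (2-fold) higher in dividing nuclei, while 8.91%, 10.5% and 6.8% of all genes were. Only 2, 1 and 2 of them were past 1 log2 unit lower, against 12.9%, 9.96% and 8.27% of all genes. The median log2 ratio of the cell cycle genes was 3.90, 3.98 and 3.67, and that of all genes was −0.08, 0.03 and −0.07. The rule used this contrast, and a gene could pass the filter through its level in the dividing nuclei alone. The counts are a description, and nothing further is read from them.

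Among the mitotic motors, Kif4, a chromosome motor, was at 234, 262 and 247 CPM in the dividing nuclei, and Cenpe, which carries chromosomes to the plate, was at 164, 181 and 161 CPM. All 12 mitotic kinesins that passed the filter were past 1 log2 unit higher in each library, where 8.91%, 10.5% and 6.8% of all genes were. This count too is a description of nuclei that cell cycle genes had chosen. The kinetochore list summed to 1665, 1965 and 1721 CPM against 68.1, 81.1 and 75.8 CPM in non-dividing nuclei. The condensins, which fold chromosomes for mitosis, summed to 1514, 1555 and 1429 CPM against 161.6, 173.8 and 155.0.

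Genes of DNA replication were high as well. Pola1, the catalytic subunit of the polymerase that starts new strands, was at 604, 631 and 629 CPM in the dividing nuclei, against 76.2, 60.4 and 79.6 CPM in non-dividing nuclei. Brip1, a helicase of DNA repair, was at 236, 207 and 180 CPM against 4.02, 4.64 and 6.49. The S phase list summed to 3904, 4207 and 3627 CPM, 8.82, 8.90 and 7.52 times the non-dividing level, and the G2/M list to 4421, 4714 and 4222 CPM, 5.93, 6.30 and 5.88 times that level. The dividing nuclei of each library held transcripts of replication and of mitosis. Since cell cycle genes chose these nuclei, this is a description and no independent finding.

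The cyclin genes, which set the steps of the cycle, differed among themselves. Ccnd1, the G1 cyclin that mitogens induce, was at 135, 74.4 and 114 CPM in the dividing nuclei, against 57.7, 38.8 and 90.9 CPM in non-dividing nuclei. Ccnd2 was at 18.5, 12.4 and 13.2 CPM in dividing nuclei against 50.8, 16.5 and 31.0, lower in control and the p300-ablated library and close in the CBP-ablated one. Ccnd3 was lower in dividing nuclei, at 12.9, 14.2 and 17.3 against 46.2, 32.0 and 37.0. In dividing nuclei the levels of both genes rest on few UMIs. Among the inhibitors, Rbl1, a relative of the retinoblastoma protein, was at 120, 133 and 117 CPM in dividing nuclei against 10.9, 11.3 and 13.0. Cdkn1a and Cdkn1b were near the non-dividing level, at 20.3 and 27.7 CPM in control dividing nuclei against 28.0 and 18.5.

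Of the genes on no list, those with the largest smallest-of-3 fold in dividing nuclei were Neil3, Iqgap3, Esco2, Kntc1, Melk, Racgap1, Lockd, Aspm, Stil and Depdc1a. Neil3, a DNA glycosylase, was at 94.1, 95.7 and 100.8 CPM, and at no more than 0.61 CPM in non-dividing nuclei. Esco2, which locks sister chromatids together in S phase, was at 92.3, 92.1 and 75.4 CPM, and Aspm, a spindle pole protein, at 73.8, 97.4 and 91.6 CPM. The 10 genes had 107 to 296 UMIs in the dividing nuclei of the 3 libraries together.

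**Figure D1:**
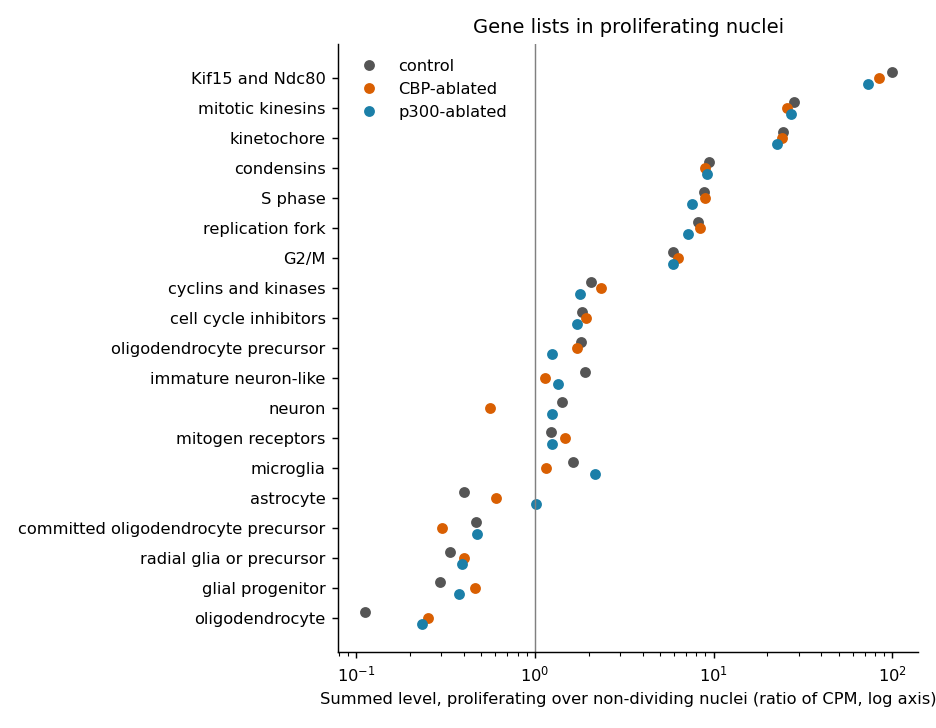
The horizontal axis (log scale) gives the summed CPM of each gene list in proliferating nuclei divided by that in nuclei with no UMI of the 4 rule genes, with 1 point per library. Cell cycle lists lie to the right in all 3 libraries, with Kif15 and Ndc80 at 99.5, 84.0 and 73.0 times, and the oligodendrocyte list lies furthest to the left, at 0.11, 0.25 and 0.23 times.

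Dividing nuclei made up 2.68% (2.25 to 3.17), 4.24% (3.55 to 5.02) and 3.98% (3.44 to 4.58) of all nuclei. With every nucleus thinned to 1500 UMIs before the rule was applied, the shares were 1.16%, 2.36% and 1.79%, of 4636, 2922 and 4513 nuclei that were deep enough. Thinning left out 248, 95 and 135 shallower nuclei. Both ablated libraries were above control on either scale, by 1.56 (0.74 to 2.44) and 1.30 (0.58 to 2.03) percentage points at full depth.

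The denominators of these shares differed between the libraries. Astrocyte-like nuclei numbered 1312, 1 and 8, and only 2 of them met the rule, both marked as doublets. Outside that class the shares were 3.61%, 4.24% and 3.99%, and the differences from control were 0.63 (−0.31 to 1.59) and 0.38 (−0.47 to 1.20) percentage points. The counting intervals of both differences then included 0.

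Within the OPC-like class the order changed. Dividing nuclei were 108 of 1396 OPC-like nuclei (7.74%, 6.39 to 9.26), 106 of 833 (12.73%, 10.5 to 15.2) and 158 of 2179 (7.25%, 6.20 to 8.42). The CBP-ablated share was 4.99 (2.40 to 7.74) percentage points above control, and the p300-ablated share differed from control by −0.49 (−2.31 to 1.25). After thinning the shares were 3.49%, 7.23% and 3.53%. Nuclei with at least 2 UMIs of Pdgfra, a division that needs no clustering, gave 7.004%, 12.9% and 6.49%. On these scales the CBP-ablated library stood above both others, and control lay inside the p300-ablated interval.

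The OPC-like class itself was built differently in the libraries. It joins 2 clusters of non-dividing nuclei, one led by Alk, Tafa1 and Unc13c and one with Gpr149, Megf11 and Plppr1 among its leading genes. The first cluster held 43.7%, 8.31% and 67.3% of the OPC-like reference nuclei. The part of this difference in the shares of dividing nuclei was not tested.

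**Figure D2:**
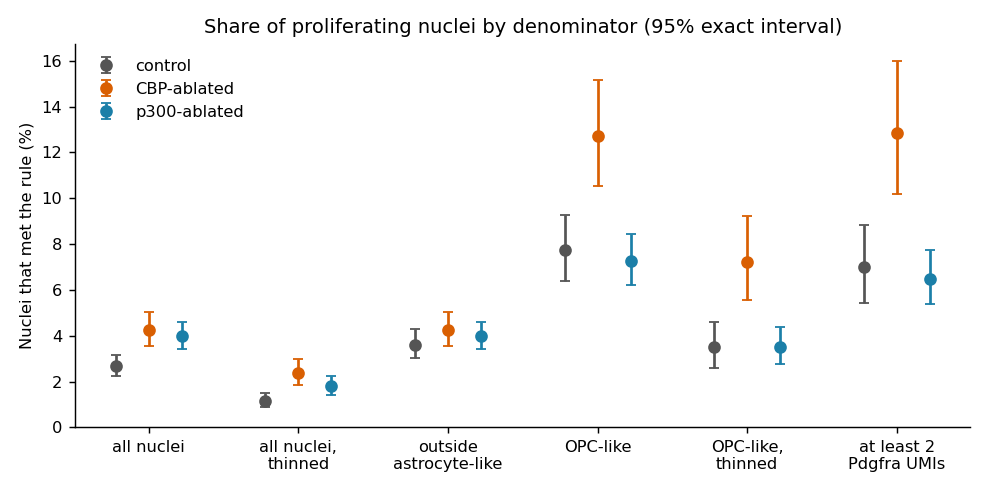
Each point gives the percentage of nuclei that met the rule in 1 library, with its exact 95% binomial interval, for 6 denominators named on the horizontal axis. The CBP-ablated points for OPC-like nuclei lie at 12.73% and, after thinning, at 7.23%, above both other libraries, while outside the astrocyte-like class the 3 intervals overlap.

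Each dividing nucleus was next given the class held by most of its 30 nearest non-dividing nuclei, in a space built without the cell cycle genes. The OPC-like class took 108 of 131 (82.4%), 106 of 128 (82.8%) and 158 of 185 (85.4%) dividing nuclei. The neighbours were unanimous for 354 of the 444 nuclei. The remaining nuclei were nearest to microglia-like nuclei (10, 1 and 5), radial glia or precursor-like nuclei (2, 6 and 11), glial progenitor-like nuclei (1, 5 and 5), committed OPC-like nuclei (5, 3 and 1), immature neuron-like nuclei (3, 1 and 4), oligodendrocyte-like nuclei (0, 6 and 1) and astrocyte-like nuclei (2, 0 and 0). None was nearest to neuron-like nuclei, which numbered 101, 172 and 88.

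Classes by the highest marker score gave a different picture, with 24.4%, 35.9% and 30.3% of dividing nuclei in the OPC-like class. By that score 42.7%, 35.2% and 37.3% were immature neuron-like. Of those immature neuron-like by score, 54 of 56, 44 of 45 and 64 of 69 were nearest to OPC-like nuclei. The list behind the score holds Kcnj6, Nell2, Cacng4, Grm7, Nkain3 and Kcnk10, and OPC-like non-dividing nuclei of control carried Nell2 at 397 CPM and Nkain3 at 1333 CPM.

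The classes around the OPCs were thin. Of the radial glia or precursor-like dividing nuclei, 2 of 2, 2 of 6 and 9 of 11 were marked as doublets, and their median depth in the p300-ablated library was 7756 UMIs against 3813 in non-dividing nuclei of the class. One of the 2 glial progenitor-like clusters was led by the immediate early genes Fosb, Atf3, Klf4 and Junb. The microglia-like class was shallow, with a median of 1154 UMIs in control.

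**Figure D3:**
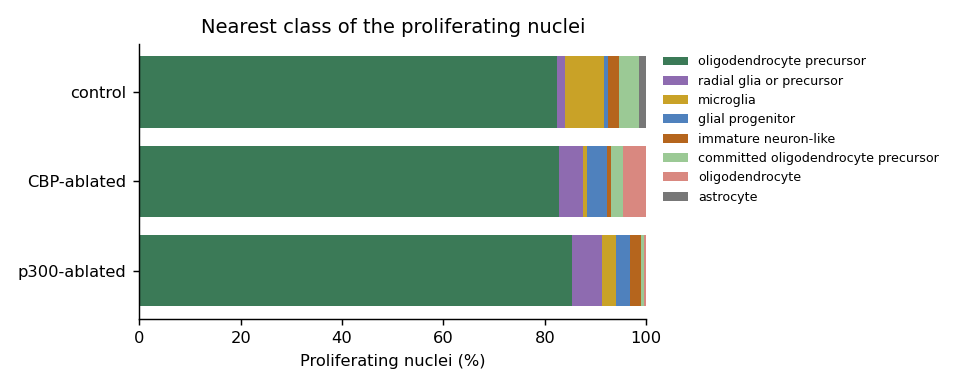
Stacked bars give the percentage of the proliferating nuclei of each library (131, 128 and 185 nuclei) nearest to each class of non-dividing nuclei. The OPC-like class fills 82.4%, 82.8% and 85.4% of the bars.

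Pdgfra, the receptor through which PDGF drives OPC division, was the lineage gene most dividing nuclei carried. It had a UMI in 94 of 131 (71.8%), 87 of 128 (68.0%) and 152 of 185 (82.2%) of them. In microglia-like non-dividing nuclei, which should lack it, the share was 4.85%, 4.35% and 14.0% at median depths of 1154, 1035 and 1437 UMIs. After thinning to 1500 UMIs the shares were 44.4%, 46.4% and 50.6% in dividing nuclei, against 6.45%, 4.76% and 9.52% in the microglia-like ones.

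The level of Pdgfra in the dividing nuclei was 517 (458 to 581), 508 (451 to 571) and 568 (522 to 617) CPM. The log2 ratios to control were −0.02 (−0.27 to 0.22) and 0.14 (−0.07 to 0.35), and both intervals included 0. In non-dividing nuclei Pdgfra was at 220, 175 and 439 CPM. Against OPC-like non-dividing nuclei, OPC-like dividing nuclei had less Pdgfra, at 565, 615 and 615 CPM against 692, 780 and 879.

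Lhfpl3, a membrane protein gene used as an OPC marker, was at 10945, 9748 and 11718 CPM in OPC-like dividing nuclei against 14284, 14043 and 15230 in OPC-like non-dividing nuclei, and Megf11 was at 349, 506 and 469 against 764, 1067 and 885. The list of 9 OPC genes summed to 15025, 12563 and 15977 CPM in all dividing nuclei and to 8290, 7281 and 12788 in non-dividing nuclei. Cspg4 (NG2), the OPC proteoglycan, was at 138, 76.2 and 141 CPM in the dividing nuclei. For the CBP-ablated library this is a log2 ratio of −0.86 (−1.44 to −0.30) to control. Cspg4 was among the leading genes of the OPC-like cluster led by Alk, which held 43.7% of control and 8.31% of CBP-ablated OPC-like reference nuclei. The part of this make-up in the ratio was not tested.

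Bcas1, which marks the step from precursor to myelinating cell, had a UMI in 54 (41.2%), 76 (59.4%) and 83 (44.9%) of the dividing nuclei. Of the shallower microglia-like nuclei, 15.2%, 30.4% and 14.0% held a UMI too, from a source that was not tested. After thinning, the shares were 22.2%, 36.2% and 21.0% in dividing nuclei and 17.7%, 23.8% and 9.52% in microglia-like nuclei, so in control the share was little above that background. The background was 11 of 62, 5 of 21 and 2 of 21 nuclei, and its interval overlapped that of the dividing nuclei in each library.

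The level of Bcas1 was 292 (248 to 341), 361 (313 to 415) and 206 (178 to 236) CPM in the dividing nuclei. All 3 were below the non-dividing nuclei, at 725, 1642 and 700 CPM. The log2 ratios to control were 0.31 (0.00 to 0.62) and −0.50 (−0.81 to −0.19). Of the 202 Bcas1 UMIs of p300-ablated dividing nuclei, 76 lay in marked doublets. Among OPC-like dividing nuclei the ratios were 0.70 (0.31 to 1.10) and −0.31 (−0.71 to 0.09). OPC-like non-dividing nuclei held Bcas1 at 479, 753 and 451 CPM, with ratios of 0.65 (0.56 to 0.75) and −0.09. The CBP-ablated ratio was thus of similar size in both. Over all dividing nuclei, the CBP-ablated ratio turned to −0.11 with 10% of the UMIs subtracted as free RNA. With a threshold of 5 UMIs the p300-ablated ratio there was 0.00.

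Nuclei with both Pdgfra and Bcas1 were 40, 50 and 71 of the dividing nuclei (30.5%, 39.1% and 38.4%), and Bcas1 without Pdgfra was found in 14, 26 and 12 (10.7%, 20.3% and 6.49%). Committed OPC genes as a list summed to 1146, 1396 and 1007 CPM in dividing nuclei against 2437, 4593 and 2121 in non-dividing nuclei. Tcf7l2, a transcription factor of that step, was at 290, 407 and 213 CPM in the dividing nuclei. Enpp6, a marker of newly forming oligodendrocytes, was low, at 9.23, 5.31 and 17.3 CPM.

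Pde1a, a calcium-dependent phosphodiesterase among the leading genes of the radial glia or precursor-like cluster, had a UMI in 10 (7.63%), 8 (6.25%) and 36 (19.5%) of the dividing nuclei. The level was 18.5 CPM (8.85 to 33.9), 28.3 (16.2 to 46.0) and 116 (95.8 to 139) in that order, and the log2 ratio of the p300-ablated library to control was 2.65 (1.72 to 3.75). All 3 levels were below the non-dividing nuclei, at 140, 138 and 212 CPM. In microglia-like nuclei 3.03%, 4.35% and 2.33% held a UMI, in shallower nuclei. After thinning, 0 of 54, 2 of 69 and 9 of 81 dividing nuclei held one (0%, 2.90% and 11.1%), against 4.84%, 4.76% and 4.76% of microglia-like nuclei, so the control and CBP-ablated shares were at background.

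Of the 114 Pde1a UMIs in p300-ablated dividing nuclei, 67 lay in the 11 radial glia or precursor-like ones and 45 in nuclei marked as doublets. Without the marked doublets the p300-ablated log2 ratio was 2.38 (1.32 to 3.65). Among OPC-like dividing nuclei Pde1a was at 12.9, 6.78 and 45.7 CPM, and in OPC-like non-dividing nuclei at 26.9, 22.4 and 35.0. Pde1a was seen together with Pdgfra in 8, 6 and 32 of the dividing nuclei and without it in 2, 2 and 4.

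Lrp2, a large endocytic receptor, was at 11.1, 23.0 and 53.0 CPM in the dividing nuclei, and Shroom3, which shapes the apical cell surface, was at 60.9, 223 and 182 CPM. The list of 7 genes summed to 567, 902 and 1079 CPM, log2 ratios of 0.67 (0.46 to 0.88) and 0.93 (0.74 to 1.12) to control. Among OPC-like dividing nuclei the list was at 500.2, 599 and 568 CPM, with log2 ratios of 0.26 (0.00 to 0.52) and 0.18 (−0.05 to 0.42). Of the 52 Lrp2 UMIs of p300-ablated dividing nuclei, 34 lay in the 11 radial glia or precursor-like ones, 9 of which were marked as doublets. All 3 sums were below the non-dividing nuclei, at 1692, 2260 and 2746 CPM.

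Gfap, the intermediate filament gene of astrocytes and neural stem cells, was rare. It had a UMI in 8 (6.11%), 11 (8.59%) and 5 (2.70%) of the dividing nuclei, never with more than 2 UMIs in a nucleus. In microglia-like nuclei 1.82%, 2.90% and 2.33% held a UMI, and after thinning 1 dividing nucleus of each library did. The level was 16.6, 23.0 and 5.09 CPM, against 89.0, 162 and 94.03 in non-dividing nuclei of all classes. Among OPC-like nuclei it was at 12.9, 20.3 and 6.17 CPM in dividing and at 12.8, 24.3 and 8.40 in non-dividing ones. The log2 ratios of dividing to non-dividing OPC-like nuclei were 0.02, −0.26 and −0.45, with intervals that included 0. At matched depth the control and CBP-ablated shares (1.85% and 1.45%) lay below those of microglia-like nuclei (3.23% and 4.76%), and the p300-ablated share was 1.23% against 0 of 21. Those microglia-like shares were 2 of 62 nuclei for control and 1 of 21 for the CBP-ablated library.

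The glial progenitor list, with Aqp4, a water channel, and Gja1, a gap junction protein, summed to 1241, 1417 and 1301 CPM in dividing nuclei against 4217, 3048 and 3459 in non-dividing nuclei. In control, 5 of 5 genes of the list were past 1 log2 unit lower in dividing nuclei, in the CBP-ablated library 4 of 5 and in the p300-ablated library 5 of 5, where 12.9%, 9.96% and 8.27% of all genes were. The astrocyte list summed to 1894, 563 and 1912 CPM. Its most abundant gene was Gpc5, a glypican, for control and the p300-ablated library and Slc1a3, a glutamate transporter, for the CBP-ablated one.

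Inpp5d, which encodes the phosphatase SHIP1 of blood-derived cells and microglia, was found in few dividing nuclei. It had a UMI in 9, 1 and 7 of the dividing nuclei (6.87%, 0.78% and 3.78%), and in 0.34%, 0.63% and 0.33% of OPC-like non-dividing nuclei, at median depths of 3186, 3307 and 3756 UMIs. The level was 48.0 (31.4 to 70.3), 12.4 (4.99 to 25.5) and 19.3 (11.6 to 30.2) CPM, with log2 ratios to control of −1.95 (−3.40 to −0.71) and −1.31 (−2.25 to −0.40). In non-dividing nuclei Inpp5d was at 20.7, 8.92 and 5.76 CPM, with log2 ratios to control of −1.22 and −1.85. Pdgfra was absent from 8 of the 9 nuclei with Inpp5d in control and from the 1 CBP-ablated nucleus, but present in 4 of the 7 p300-ablated ones. The microglia list of 8 genes, of which Fyb was the most abundant, summed to 253, 110 and 172 CPM in the dividing nuclei.

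Of the Inpp5d UMIs of dividing nuclei, 25 of 26, 7 of 7 and 16 of 19 lay in nuclei nearest to the microglia-like class. Those 10, 1 and 5 nuclei held 34, 16 and 55 UMIs of Fyb, an adaptor of immune cell signalling, and 117, 30 and 106 UMIs of the G2/M list. They were 5.24% (2.54 to 9.42), 1.30% (0.03 to 7.02) and 8.93% (2.96 to 19.6) of the microglia-like nuclei. These intervals overlap. One of the 5 p300-ablated nuclei was marked as a doublet. The 5 held 9 UMIs of Pdgfra and the OPC list at 10244 CPM, against 731 CPM in the 10 control nuclei. So in the p300-ablated library OPC and microglia genes occurred in the same nuclei. The median depth of these 5 was 4877 UMIs, against 1437 in p300-ablated non-dividing nuclei of the class. For control it was 1371 against 1154. Whether the 5 were mixtures of 2 cells was not tested. Among OPC-like dividing nuclei Inpp5d had 1, 0 and 3 UMIs, and the p300-ablated log2 ratio there was 0.78.

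A further group carried none of the 5 lineage genes, 13, 11 and 16 nuclei (9.92%, 8.59% and 8.65%). Endothelial or mural markers summed to 2, 5 and 12 UMIs and fibroblast markers to 2, 0 and 0 UMIs in all dividing nuclei. These cell types were at or near 0 in the dividing nuclei.

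**Figure D4:**
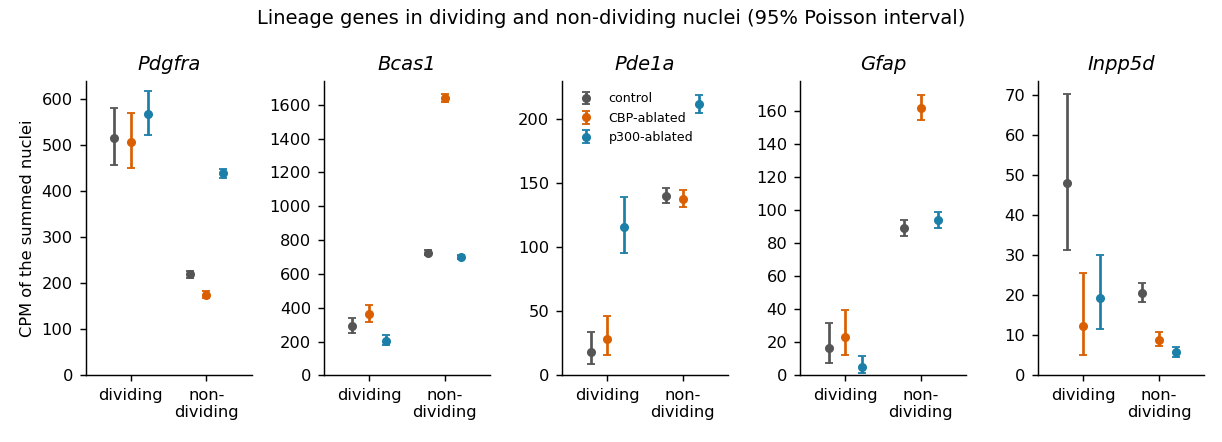
Each panel gives the CPM of 1 lineage gene in the summed dividing nuclei and in the summed non-dividing nuclei of each library, with exact 95% Poisson intervals. Pdgfra lies at 508 to 568 CPM in the dividing nuclei of all 3 libraries, and Bcas1, Pde1a and Gfap lie below their non-dividing level. Pde1a of the p300-ablated dividing nuclei stands at 116 CPM, against 18.5 in control dividing nuclei and 212 in p300-ablated non-dividing nuclei.

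Within the dividing nuclei, each ablated library was then set against the same control library, gene by gene. Of 3877 genes with at least 50 UMIs in the dividing nuclei of the CBP-ablated and control libraries together, 107 (2.76%) were past 1 log2 unit above control and 87 (2.24%) below it. Of 4614 genes for the p300-ablated library, 72 (1.56%) were above and 21 (0.455%) below. The median log2 ratio was 0.11 and 0.03. Measured from these medians, 74 genes were above and 120 below for the CBP-ablated library, which turned the balance, and 68 and 24 for the p300-ablated one. With at least 20 UMIs in each library they were 62 and 58, and 18 and 25, which turned the balance for the p300-ablated library. These are counts past a fold and not tests, and both comparisons share the control nuclei.

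Cell cycle genes were also compared between the libraries, on nuclei that cell cycle genes had chosen. Of 84 cell cycle genes that passed the filter for the CBP-ablated library, 3 were past 1 log2 unit above control and 0 below. Of all genes, 2.76% were above and 2.24% below. Of 96 for the p300-ablated library 1 was above and 1 below, where 1.56% and 0.455% of all genes were. The medians of the cell cycle genes were 0.06 and −0.12. Nothing is read from these few genes. For the CBP-ablated library they were Anp32e, Bub1b, a spindle checkpoint kinase, and Cenph, a centromere protein. For the p300-ablated library they were Ncaph2 above and Kif2c below. They are named after their values were seen. Bub1b was at 35.1, 74.4 and 62.1 CPM in the dividing nuclei. The S phase list was at log2 ratios of 0.11 (0.02 to 0.19) and −0.11 (−0.18 to −0.03), and the G2/M list at 0.09 (0.01 to 0.17) and −0.07 (−0.14 to 0.01). The kinetochore list was at 0.24 (0.11 to 0.37) and 0.05 (−0.07 to 0.17), and cyclins and kinases were at −0.35 (−0.63 to −0.08) and −0.17 (−0.40 to 0.07).

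In the CBP-ablated library the lowest ratio belonged to Gpc5, with 102 UMIs in 40 of its dividing nuclei against 686 in 100 of control, a log2 ratio of −2.81 (−3.12 to −2.51). Alk, a receptor tyrosine kinase, had 25 UMIs in 16 nuclei against 167 in 58, a log2 ratio of −2.80 (−3.47 to −2.19). Both were low in OPC-like dividing nuclei alone, at −2.66 and −3.44, and in OPC-like non-dividing nuclei, at −2.27 and −2.02. Alk was the leading gene of the OPC-like cluster that holds few CBP-ablated nuclei.

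The other 8 lowest genes for the CBP-ablated library were Fstl5, Ldb2, Fmn1, Kctd8, Clstn2, Slc1a2, Arpp21 and Lrfn2, at −2.34 to −1.75, and 1 predicted gene was passed over. Slc1a2, the main glutamate transporter of astrocytes, was at 137, 37.2 and 170 CPM in the dividing nuclei. Kctd8, a subunit of GABA-B receptors, had 37 UMIs against 140. In OPC-like dividing nuclei these 8 genes stood between −2.36 and −1.43.

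The genes above control fell into kinds that differ in how many nuclei carried them. Gpr149, an orphan receptor gene, had 46 UMIs in 24 CBP-ablated dividing nuclei against 6 in 6 of control, a log2 ratio of 2.88 (1.65 to 4.40), and no nucleus held over 5. It was at 3.01 (1.78 to 4.53) in OPC-like dividing nuclei and at 1.47 (1.16 to 1.79) in OPC-like non-dividing nuclei. The gene was chosen by its ratio in dividing nuclei, so nothing is read from that difference. Gpr149 was among the leading genes of the OPC-like cluster that held 56.3% of control and 91.7% of CBP-ablated OPC-like reference nuclei. The part of this make-up in the ratios was not tested.

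Rnf220, Mbp, Zfp536, Map7, Prr5l, Grm7 and Slc24a2 had most of their UMIs in the 6 oligodendrocyte-like nuclei. Mbp, the myelin basic protein gene, had 262 UMIs in CBP-ablated dividing nuclei and 22 in those of control, with a log2 ratio of 3.51 (2.89 to 4.21), and 197 of the 262 lay in the 6 oligodendrocyte-like nuclei. Rnf220 had 189 of its 223 UMIs there and Grm7, a glutamate receptor, 144 of its 200. Outside the oligodendrocyte-like nuclei Mbp was at 40.6, 124 and 17.6 CPM in the dividing nuclei. Of the 6 nuclei 1 was marked as a doublet, and their median depth of 5949 UMIs was close to the 5901 of non-dividing oligodendrocyte-like nuclei. The oligodendrocyte list summed to 75.7, 783 and 199 CPM in all dividing nuclei, against 678, 3116 and 851 in non-dividing nuclei. In the p300-ablated library 69 of the 86 Mbp UMIs lay in 1 nucleus marked as a doublet. Among OPC-like dividing nuclei the list was at 53.9, 258 and 44.4 CPM, which turned the p300-ablated log2 ratio to control from 1.39 (0.90 to 1.91) to −0.28 (−1.05 to 0.52). In OPC-like non-dividing nuclei it was at 60.2, 246 and 74.4 CPM. The higher CBP-ablated level was thus not particular to the dividing ones. All 6 nuclei held Top2a, with 24 UMIs together, 5 held Kif15 and 2 held Mki67.

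Among the lowest genes for the p300-ablated library were Slc24a5, Zfp804a, Tm7sf3, Colec12, Pabpc1, Car8, Med6, Asah1 and Apoe, at −1.34 to −1.17, and 2 predicted genes were passed over. Apoe, a lipid carrier, had 45 UMIs in 40 dividing nuclei against 56 in 39 of control, and was at −0.52 in OPC-like dividing nuclei. Without marked doublets 9 of the 21 genes remained past 1 log2 unit below control, with the filter on UMIs not applied again.

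Above control in the p300-ablated library, Rcan2, a calcineurin regulator, had 73 UMIs in 29 dividing nuclei against 6 in 5, a log2 ratio of 2.75 (1.56 to 4.24), with 32 of them in 1 nucleus. Map7, a microtubule-binding protein gene, had 96 UMIs in 43 nuclei against 10 in 9, a log2 ratio of 2.40 (1.46 to 3.51), with 35 of the 96 in 1 oligodendrocyte-like nucleus marked as a doublet. Outside that nucleus it was at 63.2 CPM against 18.5 in control, and without marked doublets its log2 ratio was 1.83 (0.80 to 3.04). Heg1, a membrane protein gene, had 157 in 37 nuclei against 21 in 8, a log2 ratio of 2.04 (1.38 to 2.78), with 25 of them in 1 nucleus. These 3 were at 2.42 (0.72 to 4.78), 1.92 (0.84 to 3.21) and 1.73 (0.35 to 3.46) in OPC-like dividing nuclei. In OPC-like non-dividing nuclei they were at 0.92, 0.47 and 0.92, inside those intervals for Rcan2 and Heg1. The genes were chosen by their ratios in dividing nuclei, so nothing is read from lower ratios in non-dividing ones.

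Prr5l rested on 1 nucleus, with 56 of 67 UMIs in the oligodendrocyte-like p300-ablated nucleus, the deepest of all at 17082 UMIs and marked as a doublet. Without marked doublets its log2 ratio fell from 2.62 to 0.27. Igfbp2, Lrp2, Gpc4 and Arvcf complete the 10 highest, at 2.36, 2.26, 1.86 and 1.83, and at 0.61, 1.70, 0.86 and 0.78 in OPC-like dividing nuclei. Of the 72 genes above control 46 remained past 1 log2 unit without the marked doublets, whether or not they still held 50 UMIs over both libraries.

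**Figure D5:**
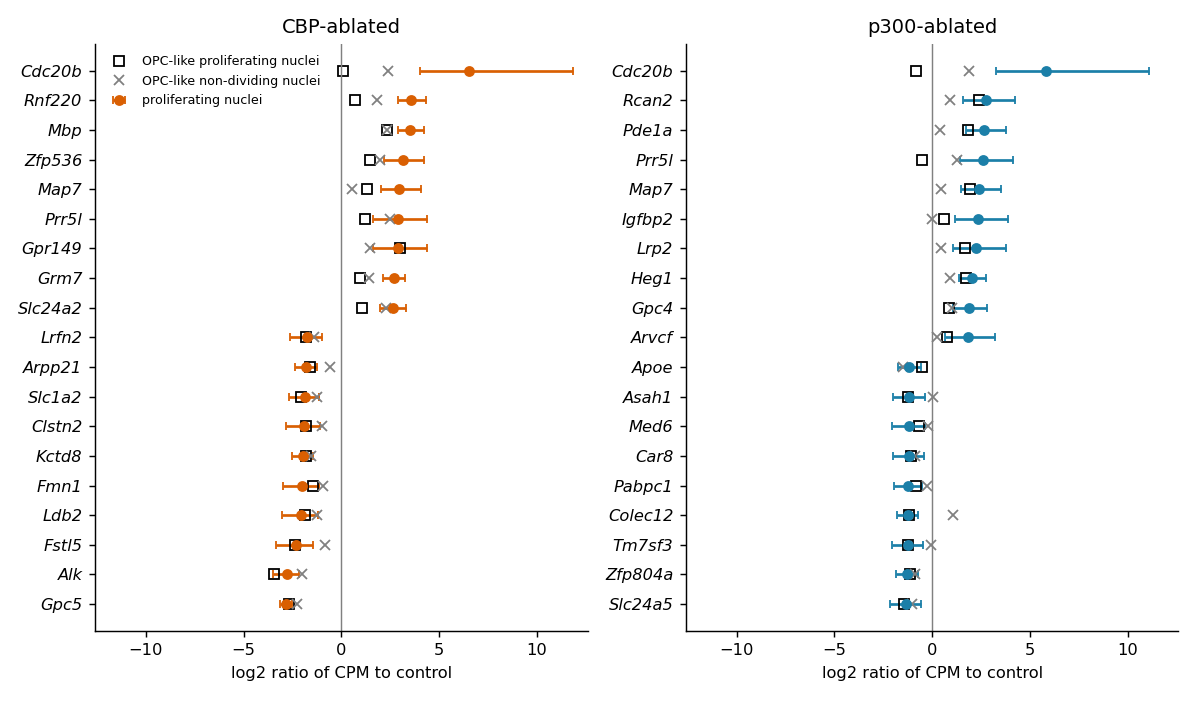
The horizontal axis gives the log2 ratio of CPM to control for the named highest and lowest genes of each ablated library. Filled points with 95% intervals are all proliferating nuclei, open squares the OPC-like ones and crosses the OPC-like non-dividing nuclei. Gpc5 and Alk are low in all 3 sets of the CBP-ablated library, while Cdc20b, at 6.53 and 5.80 in all proliferating nuclei, is at 0.07 (−6.23 to 6.36) and −0.80 (−7.10 to 5.49) in the OPC-like ones, with 1 UMI in each library.

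Cdc20b had the highest ratio in both ablated libraries. It lies in a gene block that is switched on in precursors of cells with many cilia, which build centrioles with part of the mitotic machinery without dividing. It had 96 UMIs in 5 CBP-ablated nuclei that met the rule and 101 in 4 p300-ablated ones against 1 in control, log2 ratios of 6.53 (4.01 to 11.8) and 5.80 (3.29 to 11.1). All but 1 UMI in each ablated library lay in 4 and 3 nuclei that held 3 or more Cdc20b UMIs, a group described after its values were seen.

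Those 7 nuclei were all nearest to the glial progenitor-like class, and none was marked as a doublet. They met the rule with 3 to 6 UMIs. The 4 CBP-ablated ones held 10 UMIs of Top2a, 5 of Kif11, and 0 of Mki67, Knl1, Kif15 and Ndc80. The 3 p300-ablated ones held 7 of Top2a, 3 of Mki67, 2 each of Kif11, Knl1 and Kif15, and 0 of Ndc80. Mcidas, the regulator of multiciliated cells, had 13 and 11 UMIs in them, and Deup1, which builds the organelle that makes centrioles, had 3 and 28.

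Their S phase list was at 853 and 2501 CPM, against 4308 and 3646 in the other nuclei of the same libraries that met the rule, and their G2/M list at 2436 and 2867 against 4782 and 4245. The ependymal list (Foxj1, Dnah12, Cfap299 and Spag17) had 53 UMIs in CBP-ablated and 72 in p300-ablated dividing nuclei, of which 48 and 52 lay in these 7 nuclei. It had 0 in the control dividing nuclei. Set against a floor of 3 UMIs over that group it was 17.0-fold and 13.2-fold higher. The counting intervals give a weaker bound, with lower ends of the log2 ratios at 3.73 and 3.39. Over all nuclei, at least 3 Cdc20b UMIs were found in 10 of 3017 nuclei after loss of CBP, 9 of 4648 after loss of p300 (0.331% and 0.194%) and 0 of 4884 control nuclei, which allows a share of up to 0.0614% by 3 counts of the total, or 0.0755% as the upper end of the exact interval. Without any nucleus of at least 3 Cdc20b UMIs the shares of nuclei that met the rule were 2.68%, 4.12% and 3.92%.

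Growth factor receptors pass the signals that drive precursors to divide. Erbb4, the neuregulin receptor, was at 5313, 5304 and 4486 CPM in the dividing nuclei. Igf1r, the IGF1 receptor, was at 382, 411 and 508 CPM. Egfr was at 144, 92.1 and 84.5 CPM, log2 ratios of −0.64 (−1.18 to −0.12) and −0.77 (−1.23 to −0.30), and lay below the non-dividing level in control, at 388 CPM. Ccnd1 in the CBP-ablated library had a log2 ratio of −0.86 (−1.44 to −0.29), and of −1.10 in OPC-like dividing nuclei.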

How the data were processed

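The deposited values are UMI counts for each gene in each nucleus, without normalization, which the authors made on GRCm38 (mm10) over exons and introns. The submitters' processing notes name Cell Ranger 3.1, FastQC 0.11.9 and Seurat 2.3.4. All 12549 nuclei were kept. The members, lists and comparisons were chosen with earlier results of these data known. Python 3.11.15, numpy 2.4.6, scipy 1.17.1, pandas 2.3.3, scanpy 1.11.5, scikit-learn 1.9.0 and matplotlib 3.10.9 were used.

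Non-dividing nuclei (11323) were scaled to 10000 UMIs and clustered on 1826 variable genes without cell cycle genes, with 20 components and a resolution of 0.6. The 12 clusters were named "X-like" from marker lists, and each dividing nucleus took the class of most of its 30 nearest nuclei, so names are rebuilt and can differ from the study's. Doublets were scored with Scrublet, the top 0.8% per 1000 nuclei were marked, and all were kept. Sums are CPM with exact Poisson intervals, shares have Clopper-Pearson intervals, differences of shares have Newcombe intervals, and log2 ratios have conditional binomial intervals. Genes named are those of the rule, the lists, the 10 outside the lists with the largest fold in dividing nuclei (at least 100 UMIs, 1 CPM added) and the 10 highest and 10 lowest log2 ratios to control. Predicted genes were not named, and 2 of the genes chosen are not reported here. The list of multiciliated precursor genes (Cdc20b, Ccno, Mcidas, Deup1, Foxn4 and Myb) was added after the data were seen; it summed to 15 UMIs in control, 134 in CBP-ablated and 166 in p300-ablated dividing nuclei. The ratio step was tested on simulated data.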

Additional observations from a re-analysis of the deposited data

How the results depend on the processing

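Of 154 alternative values over 25 results, 104 stayed within counting error of the value reported or, for counts of genes, within 1.5 times it, 45 moved further and 5 reversed a value whose interval excluded 0. The sign changed for 11 more values, all of the CBP-ablated Pdgfra, Pde1a and Gfap ratios, whose own intervals included 0. The shares of dividing nuclei (control, CBP-ablated, p300-ablated) were 3.64%, 5.44% and 5.23% with a threshold of 2 UMIs, 1.70%, 3.28% and 2.99% with 5 UMIs, 1.16%, 2.36% and 1.79% after thinning, 1.86%, 3.15% and 3.03% with Top2a left out of the rule, 7.74%, 12.73% and 7.25% among OPC-like nuclei, and 7.004%, 12.9% and 6.49% among nuclei with at least 2 Pdgfra UMIs. Outside the astrocyte-like class the control share was 3.61% and the log2 ratios of shares to control fell from 0.66 and 0.57 to 0.23 and 0.14. The p300-ablated ratio of shares reversed to −0.093 among OPC-like nuclei and to −0.11 with at least 2 Pdgfra UMIs. With that Pdgfra minimum after thinning, control was at 1.65%, the p300-ablated library at 2.23% and the CBP-ablated log2 ratio at 1.54.

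The Bcas1 log2 ratio of the CBP-ablated library was 0.76 with 5 UMIs, 0.73 after thinning, 0.70 among OPC-like dividing nuclei and −0.11 with 10% free RNA subtracted. That of the p300-ablated library was 0.0013 with 5 UMIs and −0.13 after thinning. The Pde1a ratio of the p300-ablated library was 1.72 with 2 UMIs and 4.27 with free RNA subtracted, and that of the CBP-ablated library −0.93 among OPC-like dividing nuclei. The Inpp5d ratio of the p300-ablated library was −2.29 from the mean CPM of nuclei and 0.78 among OPC-like dividing nuclei. Genes above control numbered 62 (CBP-ablated) and 18 (p300-ablated) with at least 20 UMIs in each library (58 and 25 below), 65 and 38 among OPC-like dividing nuclei (71 and 16 below), and 41 for p300-ablated without marked doublets, where the minimum of 50 UMIs was applied again and left 4240 genes (16 below). With at least 1 UMI and 0.5 added they were 3538 and 1902, with 2285 and 2170 below. The OPC-like share of dividing nuclei was 24.4%, 35.9% and 30.3% by marker score, and 91.1% for p300-ablated without marked doublets. The cause of these changes was not tested.

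No value was obtained for the Pde1a ratios after thinning, the p300-ablated Gfap ratio with free RNA subtracted and the CBP-ablated Inpp5d ratio among OPC-like dividing nuclei, each with a group at 0. The alternatives restricted to OPC-like nuclei, to nuclei with at least 2 Pdgfra UMIs, to nuclei outside the astrocyte-like class or to nuclei with under 3 Cdc20b UMIs were chosen after seeing the data. No paired analysis was possible because each condition has 1 library. Depth limits the rarer genes: 3 UMIs in the dividing nuclei equal 3.05 to 5.54 CPM.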

Other observations

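Xist, the RNA of the inactive X chromosome, was at 1394, 2285 and 1317 CPM in the dividing nuclei (control, CBP-ablated, p300-ablated), and had a UMI in 89 of 131, 110 of 128 and 120 of 185 of them. In non-dividing nuclei Xist was at 1059, 1660 and 990 CPM. The sex of the pups behind each pool is not given in the sources used here, and its part in the differences between libraries was not tested.

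Adarb2, an RNA-binding protein gene on the neuron list, was at 1337, 450.0 and 1009 CPM in the dividing nuclei (control, CBP-ablated, p300-ablated), although no dividing nucleus was nearest to the neuron-like class. In OPC-like non-dividing nuclei Adarb2 was at 1077, 538 and 937 CPM.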
